A study of Rattus norvegicus with 6 samples.

Results

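The 8 genes described here, Zg16, Gp2, Sycn, Cuzd1, Serpini2, Spink1, Rab3d and Stx3, encode proteins of the zymogen granule, of its fusion with the cell surface, and inhibitors of the proteases it stores. They were taken by gene name from a table of 34001 genes, and each name matched 1 entry. The libraries came from pancreatic tissue of 6 rats of the outbred Sprague-Dawley stock, 2 for each of 3 groups. In the TP+hucMSC-Exs group (traumatic pancreatitis with exosomes), the gland was crushed with an impactor over 3 cm2 at 10 kg, and exosomes of human umbilical cord mesenchymal stem cells, which are small vesicles that cells release, were given into the tail vein at 10 μg per 100 g. In the TP group the same injury was combined with 1 ml of saline. Control rats underwent laparotomy, with the gland only moved by swabs, and received 1 ml of saline. All glands were taken 24 h after the operation, all rats had been anesthetized, and no other agent or allele is named.

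Acinar cells pack digestive enzymes as inactive precursors into zymogen granules and release them when the granule membrane fuses with the apical surface. Sorting of the precursors depends on their aggregation and on proteins that hold the aggregate to the membrane, while Rab GTPases and SNARE proteins carry out docking and fusion. Trypsin inhibitors packed with the enzymes hold back trypsin that becomes active too early, the event by which pancreatitis is classically thought to begin.

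Levels are in TPM, which corrects reads for gene length and gives each library the same total, so depth is unknown and no counting error could be given. Prss1, a trypsinogen, and Ctrb1, chymotrypsinogen B, held the first 2 ranks in every library. The libraries of the TP group stood apart from each other, and TP replicate 2 also from the other 4. The 14 fat-cell markers summed to 49.8 and 65.5 TPM in TP+hucMSC-Exs, to 27.9 TPM in TP replicate 1 and 10870 TPM in TP replicate 2, and to 30.3 and 62.3 TPM in control. Markers at 0 numbered 2 and 4 for TP+hucMSC-Exs, 5 and 0 for TP, and 1 in each control. The 13 macrophage markers, none at 0, summed to 458 and 845 TPM in TP+hucMSC-Exs, 71.1 and 5250.0 TPM in TP, and 25.4 and 165 TPM in control. The 12 duct markers, none at 0, summed to 1049 and 1376 TPM in TP+hucMSC-Exs, 168 and 1802 TPM in TP, and 97.5 and 108 TPM in control. Anxa2, an annexin also made outside ducts, gave 1160.2 TPM of the sum in TP replicate 2. The median duct marker lay above the control mean by 3.69 and 3.94 (log2) in TP+hucMSC-Exs and by 0.463 and 0.356 in TP. Krt8, a keratin of simple epithelia, stood at 412 and 519 TPM in TP+hucMSC-Exs, 49.0 and 35.6 TPM in TP, and 32.2 and 34.9 TPM in control. Cldn4, a tight-junction claudin, stood at 35.0 and 49.5 TPM in TP+hucMSC-Exs, 0.37 and 0.82 TPM in TP, and 0.36 and 0.35 TPM in control. Spp1, another marker of the list, averaged 286 TPM in TP and 119 TPM in TP+hucMSC-Exs. The duct list was thus highest in TP+hucMSC-Exs by its median marker, but highest in TP replicate 2 by its sum. Spink1, Rab3d and Gp2 were highest in the TP+hucMSC-Exs libraries, where 86.9% of all genes were above control with no overlap. In bulk tissue, fewer acinar cells and less of a transcript per acinar cell cannot be told apart, and the part of these other cell types in the values below was not tested.

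**Figure D1:**
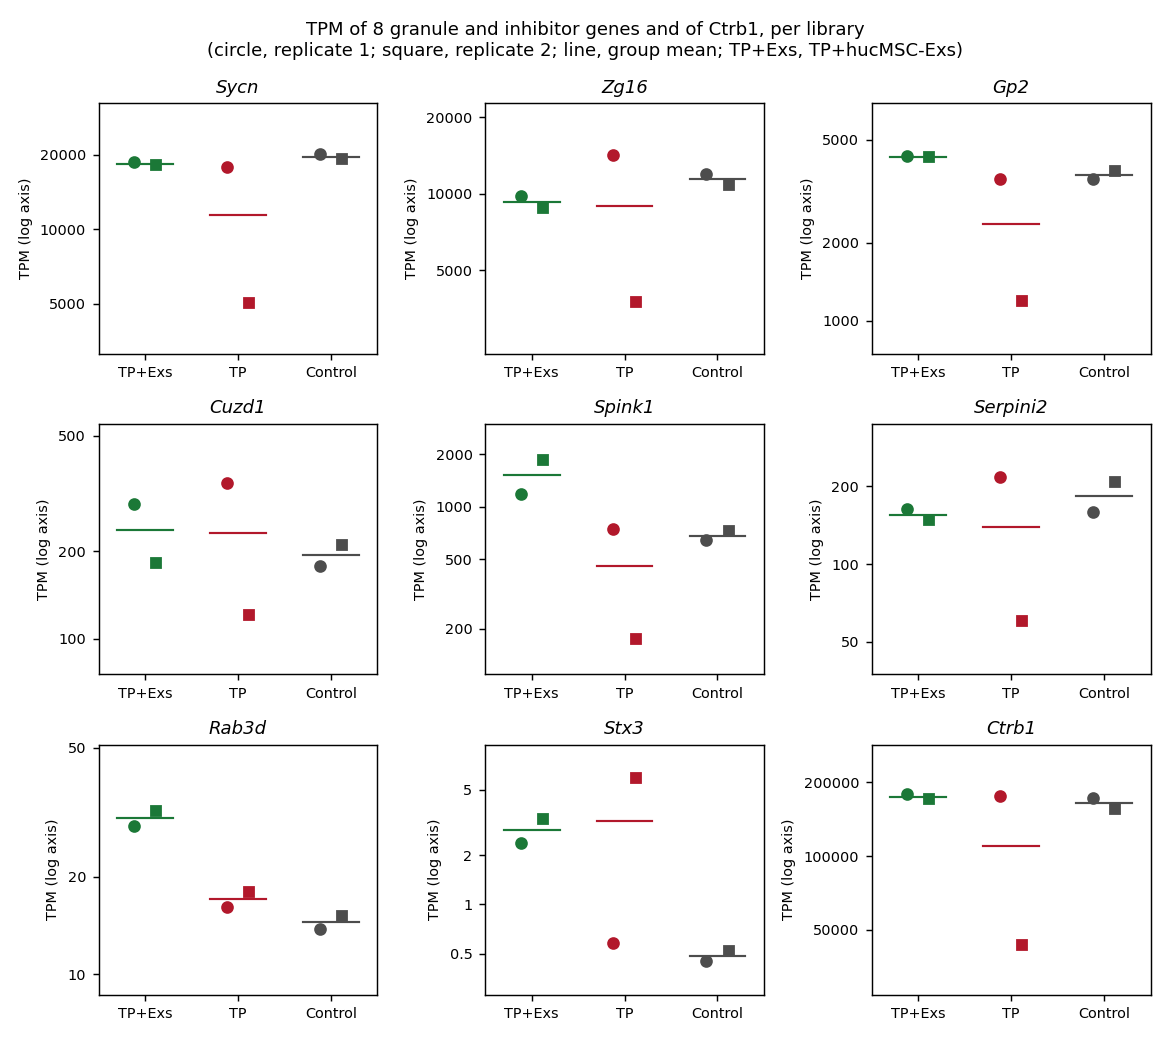
TPM of the 8 members and of Ctrb1 on log axes, with a circle for replicate 1, a square for replicate 2 and a line for the mean of each group of 2 libraries. TP replicate 2 is the lowest library for 6 of the 8 members and for Ctrb1, while Rab3d is highest in both TP+hucMSC-Exs libraries and Stx3 is highest in TP replicate 2.

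Together the 8 members took 3.44% and 3.35% of TPM in TP+hucMSC-Exs, 3.69% and 1.04% in TP, and 3.67% and 3.50% in control. Sycn, Zg16 and Gp2 made up between 93.3% and 97.3% of the members' sum. Levels differed more between members than between libraries, from a mean of 16492 TPM for Sycn over the 6 libraries to 2.19 TPM for Stx3. The order by mean was Sycn, Zg16 (9908 TPM), Gp2 (3441 TPM), Spink1 (888 TPM), Cuzd1 (221 TPM), Serpini2 (159 TPM), Rab3d (20.6 TPM) and Stx3. Each of the 6 libraries kept this order. Over the 6 libraries the ranges of neighbours overlapped from Sycn down to Serpini2, while Rab3d lay below Serpini2 and Stx3 below Rab3d in every library.

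Sycn encodes syncollin, a protein on the inner face of the granule membrane. It stood at 18635 and 18142 TPM in TP+hucMSC-Exs, 17816 and 5034 TPM in TP, and 20172 and 19155 TPM in control. Outside TP replicate 2 its highest value was 1.13 times its lowest, the smallest such spread of the 8 members. Zg16 encodes a lectin-like protein that, in rat, ties the zymogen aggregate to the granule membrane. It stood at 9811 and 8809.6 TPM in TP+hucMSC-Exs, 14202 and 3748 TPM in TP, and 12006 and 10872 TPM in control. The TP+hucMSC-Exs libraries were thus below both controls for Sycn and for Zg16, and the TP libraries lay on both sides of the other groups for Zg16.

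Gp2 encodes the glycoprotein anchored in the granule membrane that is its most abundant membrane protein. It stood at 4316 and 4292 TPM in TP+hucMSC-Exs, 3524 and 1195 TPM in TP, and 3528 and 3792 TPM in control. Both TP+hucMSC-Exs libraries were above all other libraries, and TP replicate 1 lay next to the lower control. Cuzd1 encodes another granule membrane protein, with CUB and zona pellucida-like domains, and its loss worsens experimental pancreatitis in mice. It stood at 291 and 182 TPM in TP+hucMSC-Exs, 343 and 121 TPM in TP, and 178 and 210.2 TPM in control, so that the 3 groups overlapped.

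Spink1 encodes a Kazal-type inhibitor that is secreted with trypsinogen and blocks trypsin. It stood at 1184 and 1861 TPM in TP+hucMSC-Exs, 741 and 176 TPM in TP, and 643 and 725 TPM in control. Both TP+hucMSC-Exs libraries were above all other libraries, and they differed from each other by 1.57 times. Serpini2 encodes pancpin, a serpin made in acinar cells, and mice that lack it lose acinar tissue. It stood at 163 and 148 TPM in TP+hucMSC-Exs, 217 and 60.0 TPM in TP, and 159 and 207 TPM in control, with all 3 groups overlapping.

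The rat genome holds a second gene of the same kind, Spink1l, described in the table as Kazal type 1-like, which is not among the 8 members. Both starts are annotated on the minus strand of chromosome 18, and the 250 bases before them are shown because both genes were highest in the TP+hucMSC-Exs libraries and lowest in TP replicate 2. The sequences are from RefSeq on GRCr8, Spink1 at chr18:36133597-36133846 and Spink1l at chr18:36086697-36086946. Capitals mark the longest run, 116 bases, that both share.
Spink1: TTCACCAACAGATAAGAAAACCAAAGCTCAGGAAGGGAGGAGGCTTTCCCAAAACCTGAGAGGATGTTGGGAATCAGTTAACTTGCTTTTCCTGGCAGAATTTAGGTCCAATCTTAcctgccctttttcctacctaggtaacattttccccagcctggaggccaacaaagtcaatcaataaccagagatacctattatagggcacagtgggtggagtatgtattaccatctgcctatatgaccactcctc
Spink1l: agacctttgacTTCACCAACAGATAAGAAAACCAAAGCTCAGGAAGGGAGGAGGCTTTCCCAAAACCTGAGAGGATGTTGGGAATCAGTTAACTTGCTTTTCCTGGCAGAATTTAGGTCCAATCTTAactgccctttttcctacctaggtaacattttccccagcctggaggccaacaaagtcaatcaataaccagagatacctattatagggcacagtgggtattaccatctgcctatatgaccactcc
Aligned with free ends, the windows had 238 identical bases of 239 aligned, which is 99.6%, beside an internal gap of 9 bases that this share leaves out. Transcripts of the pair were not compared here, so how far reads of one could be counted for the other is unknown, and the level of each alone is uncertain. Spink1l stood at 2146 and 2542 TPM in TP+hucMSC-Exs, 1871 and 465 TPM in TP, and 1499 and 1792 TPM in control. It was highest in the TP+hucMSC-Exs libraries and lowest in TP replicate 2, the same placing as Spink1. Gp2 also had this placing, so it was not particular to the pair. The share of all genes with it was not counted, and the part of the shared sequence in it was not tested.

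Rab3d encodes a small GTPase on the granule surface that acts in regulated release. It stood at 28.8 and 32.0 TPM in TP+hucMSC-Exs, 16.1 and 18.0 TPM in TP, and 13.8 and 15.2 TPM in control, so the groups did not overlap. Within each group the higher library was at most 1.12 times the lower, also in TP, where the other members differed by 2.84 to 10.2 times. Stx3 encodes syntaxin 3, a SNARE protein of granule membranes that takes part in fusion. It stood at 2.36 and 3.34 TPM in TP+hucMSC-Exs, 0.58 and 5.90 TPM in TP, and 0.45 and 0.52 TPM in control. All 4 injured libraries were above both controls, TP replicate 1 by the least. Its value and those of the controls were below 1 TPM, near the floor, and depth is unknown. TP replicate 2 was the highest library for 10476 of all 11477 genes tested. Syntaxin 3 is also found in other epithelia. TP replicate 2, its highest library, had the highest fat-cell and macrophage markers, whose part in its level was not tested.

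Of the 8 members, 6 had a promoter entry in RefSeq (GRCr8), and Zg16 and Sycn had none. The 250 bases before each start were searched on both strands for 4 motifs. The E-box forms, which basic helix-loop-helix factors of acinar cells can bind, were CAGCTG, then the form CATATG, and as the third CACCTG. The palindrome of STAT factors was written TTCNNNGAA. Only Rab3d held any of them, 1 CACCTG, a motif found in 15.9% of the 33469 promoters in windows of this length. Of all promoters 12% held CAGCTG, while 3.63% held CATATG, and 7.67% held TTCNNNGAA. The Ctrb1 window also held 1 CACCTG. The Rab3d window, at chr8:28725268-28725517 on the minus strand, is shown because Rab3d is known in mouse as a target of the acinar factor MIST1. Capitals mark the CACCTG, and whether MIST1 binds it was not tested.
Rab3d: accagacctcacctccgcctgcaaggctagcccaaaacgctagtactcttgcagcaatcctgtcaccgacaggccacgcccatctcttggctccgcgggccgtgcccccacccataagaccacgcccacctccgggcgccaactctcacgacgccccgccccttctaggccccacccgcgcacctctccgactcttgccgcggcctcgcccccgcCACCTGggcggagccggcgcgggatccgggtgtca
The gene of that factor, Bhlha15, stood at 37.1 and 28.9 TPM in TP+hucMSC-Exs, 36.7 and 12.3 TPM in TP, and 29.8 and 34.7 TPM in control. Its groups overlapped, while those of Rab3d did not. In TP+hucMSC-Exs against control, 86.9% of all genes were likewise higher with no overlap. The part of Bhlha15 in the level of Rab3d was not tested. Rab26, the other granule GTPase known as a target of MIST1 in mouse, stood at 13.2 and 15.7 TPM in TP+hucMSC-Exs, 11.1 and 5.36 TPM in TP, and 5.97 and 7.30 TPM in control.

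Setting TP against control addressed the effect of the crush. Sycn was lower in both TP libraries than in both controls, with a log2 fold change of -1.05 ± 0.62 (SE, of log2(TPM + 0.5), where the offset shrinks changes of low genes). Gp2 did not overlap either, at -0.83 ± 0.81, though TP replicate 1 and the lower control differed by 3524 against 3528 TPM. Stx3 stood higher by 1.42 ± 1.45 and Rab3d by 0.22 ± 1.39, while Spink1 was at -0.92 ± 1.01. Limma across 11477 genes called 0 of the 8 members at an adjusted p below 0.05 and 0 at an unadjusted p below 0.05, where 0.0523% and 4.06% of all genes were called. Of genes whose libraries did not overlap, higher ones were 23.1% of all tested and included 2 members, and lower ones were 1.09% and included 2 members. The median of the members was -0.65, against 1.495 for all genes tested. With either TP library left out, the remaining one was assumed to vary like the other groups, so those calls hold no spread within TP. Without TP replicate 1 the test called 6 members, Zg16, Gp2, Sycn, Serpini2 and Spink1 lower and Stx3 higher, beside 1.78% of all genes called lower and 91.5% higher. Without TP replicate 2 it called 0, and Zg16, Serpini2 and Spink1 then lay above control by 0.31, 0.26 and 0.12. Scaled by the median of ratios, Rab3d lay below control in TP, at -1.43, and Cuzd1 at -1.66; with TPM rescaled without the digestive enzymes they lay at -0.72 and -0.88.

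Setting TP+hucMSC-Exs against TP addressed the effect of exosomes after the crush. Spink1 stood 3.32 times as high by group means, a log2 fold change of 2.04 ± 1.01 (SE), with both TP+hucMSC-Exs libraries above both TP libraries. That change was 1.00 without TP replicate 2 and 3.08 without TP replicate 1. Its unadjusted p of 0.0428 was the only one below 0.05 among the members, and its adjusted p was 1. Gp2 at 1.07 ± 0.81, Sycn at 0.96 ± 0.62 and Rab3d at 0.82 ± 1.39 were also higher with no overlap. The remaining members lay between 0.18 ± 1.17 for Cuzd1 and 0.44 ± 1.21 for Serpini2, with overlap. Limma called 0 of 8 members, where 0.0697% of all genes were called and 1.32% had an unadjusted p below 0.05. Libraries of 4 members did not overlap and were higher, as for 5.09% of all genes, and 0 were lower with no overlap, as for 1.62%. The median of the members was 0.63, against -0.38 for all genes. Calls with a TP library left out again hold no spread within TP. Without TP replicate 1 limma called 5 members, all higher (Zg16, Gp2, Sycn, Serpini2 and Spink1), beside 3.62% of all genes called higher. Without TP replicate 2 it called 0, and Zg16, Cuzd1 and Serpini2 then lay at -0.61, -0.57 and -0.49.

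Setting TP+hucMSC-Exs against control addressed how far treated glands stood from uncrushed ones. Spink1 stood 2.23 times as high by group means (log2 fold change 1.12 ± 1.01, SE), Rab3d 2.09 times (1.04 ± 1.39) and Stx3 5.88 times (1.75 ± 1.45), each with no overlap. Gp2 was higher with no overlap by 0.23 ± 0.81. Zg16 at -0.30 ± 0.68 and Sycn at -0.10 ± 0.62 were lower with no overlap. Limma called 0 of 8 members, where 0.209% of all genes were called, and 0 had an unadjusted p below 0.05, where 2.95% of all genes did. Libraries of 86.9% of all genes did not overlap and were higher, against 4 of the 8 members, and lower ones were 1.63% of all genes and 2 of the members. The median of the members was 0.24, against 1.09 for all genes. Scaled by the median of ratios in place of TPM, Spink1 and Rab3d lay below control, at -0.35 and -0.40, Gp2 at -1.24 and Cuzd1 at -1.22; with TPM rescaled without the digestive enzymes, Gp2 and Cuzd1 lay at -0.48 and -0.46. With infinite prior degrees of freedom in limma, each standard error came from the variance trend over all genes and not from the gene's own libraries; Rab3d thus had ± 1.39 although its replicates differed by at most 1.12 times. With these 2 groups alone limma called Spink1 (adjusted p = 0.026), Rab3d (adjusted p = 0.0222) and Stx3 (adjusted p = 0.0206) higher, beside 52.3% of all genes. The same 3 were called without TP replicate 1 and without TP replicate 2, beside 52.1% and 51.9% of all genes.

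Ctrb1 is made in the same cells and stored in the same granules, so the members were also set against it, as TPM per 1000 TPM of Ctrb1. Ctrb1 itself stood at 178569 and 170734 TPM in TP+hucMSC-Exs, 176265 and 43276 TPM in TP, and 172127 and 156284 TPM in control. Its value in TP replicate 2 was 0.264 of the control mean, and those of Sycn, Spink1, Gp2, Zg16 and Serpini2 were 0.256, 0.257, 0.326, 0.328 and 0.328 of theirs. Cuzd1, Rab3d and Stx3 did not follow it as closely, at 0.622, 1.24 and 12.2 of their control means. Against Ctrb1, Sycn stood at 104 and 106 in TP+hucMSC-Exs, 101 and 116 in TP, and 117 and 123 in control. Gp2 stood at 24.2 and 25.1 in TP+hucMSC-Exs, 20.0 and 27.6 in TP, and 20.5 and 24.3 in control. The SD of the log2 ratio over the 6 libraries was 0.11 for Sycn and 0.18 for Gp2, against 0.78 and 0.70 for the SD of their log2 TPM. That drop rested on TP replicate 2. Outside it, the highest value over the lowest was 1.21 for Sycn and 1.26 for Gp2 as ratios, against 1.13 and 1.22 in TPM. The SD did not fall for Cuzd1 (0.548 against 0.541), Rab3d (0.891 against 0.508) or Stx3 (2.2 against 1.6).

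**Figure D2:**
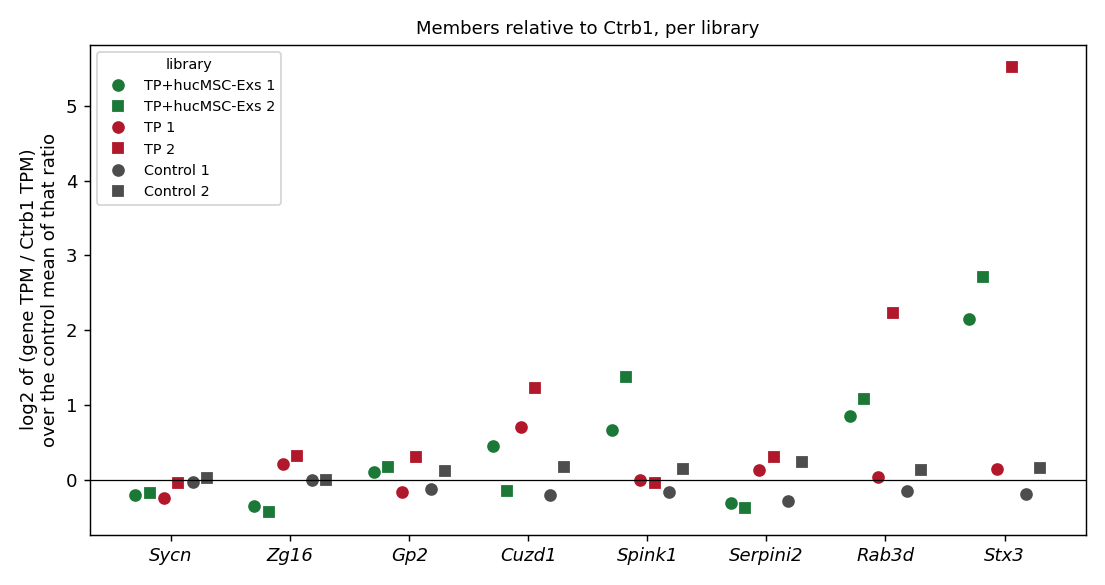
Log2 of each member's TPM over the Ctrb1 TPM of the same library, minus the log2 of the control mean of that ratio; circles are replicate 1 and squares replicate 2. Sycn and Gp2 stay near 0 in all 6 libraries, Spink1 is raised in the 2 TP+hucMSC-Exs libraries, and Rab3d and Stx3 are highest in TP replicate 2.

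Spink1 stood at 6.63 and 10.9 per 1000 TPM of Ctrb1 in TP+hucMSC-Exs, 4.20 and 4.06 in TP, and 3.73 and 4.64 in control. Its means were 8.76 ± 3.02 in TP+hucMSC-Exs, 4.13 ± 0.103 in TP and 4.19 ± 0.640 in control (SD, n = 2 each). The log2 ratio was higher by 1.04 ± 1.12 (SE) in TP+hucMSC-Exs than in TP and by 1.03 ± 1.12 than in control, and by -0.01 ± 1.12 in TP than in control. Zg16 stood at 54.9 and 51.6 in TP+hucMSC-Exs, 80.6 and 86.6 in TP, and 69.7 and 69.6 in control, so its 3 groups did not overlap. Serpini2 stood at 0.910 and 0.866 in TP+hucMSC-Exs, 1.23 and 1.39 in TP, and 0.921 and 1.32 in control. Cuzd1 stood at 1.63 and 1.07 in TP+hucMSC-Exs, 1.95 and 2.79 in TP, and 1.03 and 1.35 in control, with the TP libraries above the other 4.

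Rab3d stood at 0.161 and 0.187 per 1000 TPM of Ctrb1 in TP+hucMSC-Exs, 0.0913 and 0.416 in TP, and 0.0804 and 0.0971 in control. Stx3 stood at 0.0132 and 0.0196 in TP+hucMSC-Exs, 0.00329 and 0.136 in TP, and 0.00261 and 0.00333 in control. TP replicate 2 was the highest library for both, and TP replicate 1 lay within the range of the controls. Relative to Ctrb1, limma across 11476 genes called 0 of 8 members in each comparison, and 0 had an unadjusted p below 0.05. Of all genes it called 0.0349% in TP against control. Exosome-treated glands had 0.00871% called when set against TP, and 0.0523% when set against control. Unadjusted p-values below 0.05 made up 1.14%, 0.453% and 0.575% of all genes in that order. For TP against control the ratios of 2 members (Zg16 and Cuzd1) did not overlap and were higher, as for 16.2% of all genes, and that of Sycn was lower, as for 0.349%. For TP+hucMSC-Exs against TP those of Zg16, Serpini2 and Cuzd1 were lower with no overlap, as for 2.53% of all genes, and that of Spink1 was higher, as for 1.96%. For TP+hucMSC-Exs against control those of Spink1, Rab3d and Stx3 were higher with no overlap, as for 83.5%, and those of Zg16, Serpini2 and Sycn lower, as for 1.82%.

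The choice of Ctrb1 set the direction for several members. With Cpa1, a carboxypeptidase of the same granules, in its place, Zg16, Sycn and Serpini2 lay above control in TP+hucMSC-Exs, by 0.24, 0.44 and 0.31 (log2). With the summed digestive enzymes they did so by 0.09, 0.29 and 0.16. Spink1 kept its direction in both TP+hucMSC-Exs comparisons with either. Leaving out a TP library changed the calls for Spink1 relative to Ctrb1. Each such fit left 1 library in TP, which was assumed to vary like those of the other groups. Adjusted p-values of its comparisons with TP therefore hold no spread within TP. Without TP replicate 1 most genes were called in these comparisons, so being called there was not particular to Spink1. Without TP replicate 2 its log2 ratio was higher by 1.02 ± 0.36 in TP+hucMSC-Exs than in TP (limma adjusted p = 0.0309, beside 20.8% of all genes called higher). Without TP replicate 1 it was 1.06 ± 0.40 (adjusted p = 0.00883, beside 0.654% called higher), and there limma also called Zg16, Cuzd1, Rab3d and Stx3 lower, beside 95.5% of all genes called lower. Against control the ratio of Spink1 was called higher, with that of Stx3, in TP+hucMSC-Exs without either TP library and with these 2 groups alone (adjusted p = 0.00345 to 0.00983), beside 36.1% to 36.7% of all genes. For TP against control, Cuzd1, Rab3d and Stx3 were called higher without TP replicate 1, beside 97.4% of all genes.

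Spink1 was then set against the trypsinogens, the precursors of the enzyme it inhibits. The 8 trypsinogen genes in the table summed to 194512 and 180058 TPM in TP+hucMSC-Exs, 197058 and 54539 TPM in TP, and 269744 and 259852 TPM in control. Per 1000 TPM of that sum, Spink1 stood at 6.09 and 10.3 in TP+hucMSC-Exs, 3.76 and 3.22 in TP, and 2.38 and 2.79 in control. The groups did not overlap, but the share of all genes doing so against this sum was not counted. In TP+hucMSC-Exs against control, 86.9% of all genes on TPM and 83.5% relative to Ctrb1 were higher with no overlap. The like shares were 23.1% and 16.2% in TP against control, and 5.09% and 1.96% in TP+hucMSC-Exs against TP. Mean Spink1 TPM itself was 0.67 times control in TP and 2.23 times in TP+hucMSC-Exs. Taken from means of the log2 ratio, the Spink1 to trypsinogen ratio was 3.08 times as high in TP+hucMSC-Exs as in control. It was 2.28 times as high in TP+hucMSC-Exs as in TP, and 1.35 times as high in TP as in control. An exact two-sided permutation test gave p = 0.333 for each of the 3 comparisons, the smallest value that 2 libraries against 2 allow, so it could not pass a threshold of 0.05. Spink1l per 1000 TPM of the trypsinogens stood at 11.03 and 14.12 in TP+hucMSC-Exs, 9.50 and 8.52 in TP, and 5.56 and 6.90 in control. The sum of both inhibitors, per 1000 TPM of the trypsinogens, stood at 17.1 and 24.4 in TP+hucMSC-Exs, 13.3 and 11.7 in TP, and 7.94 and 9.69 in control.

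**Figure D3:**
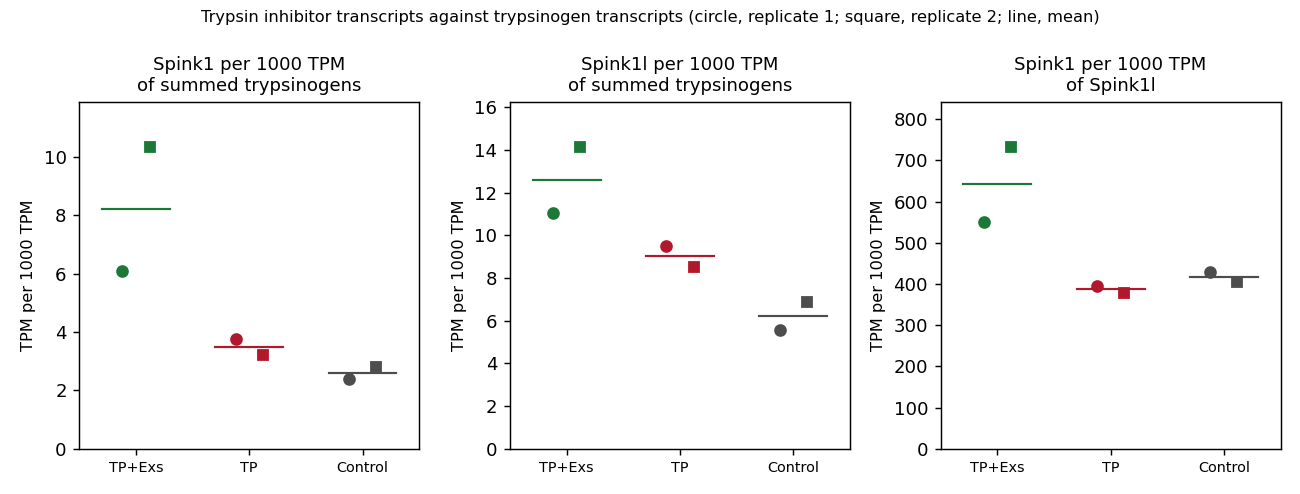
Spink1 and Spink1l per 1000 TPM of summed trypsinogens, and Spink1 per 1000 TPM of Spink1l, with a circle for replicate 1, a square for replicate 2 and a line for the mean of 2 libraries. The inhibitors stand highest against the trypsinogens in TP+hucMSC-Exs, then in TP, then in control.

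Prss1, which made up most of the sum, stood at 152806 and 139717 TPM in TP+hucMSC-Exs, 161728 and 44279 TPM in TP, and 209093 and 203002 TPM in control. Within the family, Try5 was called higher in TP+hucMSC-Exs against TP (limma adjusted p = 2.69e-06) and against control (adjusted p = 0.0134), and LOC286960, described in the table as a trypsinogen gene, against TP (adjusted p = 0.0179). Prss3 stood at 13544 and 11260 TPM in TP+hucMSC-Exs, 7186 and 2254 TPM in TP, and 27099 and 25354 TPM in control. Trypsinogens are similar to each other, so reads may be split among them. Per 1000 TPM of Spink1l, Spink1 stood at 552 and 732 in TP+hucMSC-Exs, 396 and 378 in TP, and 429 and 405 in control.

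A list of 37 further genes of granule membranes and exocytosis was described beside the members. The table held 36 entries, of which 27 had a mean of at least 1 TPM, and limma called 0 of the 27 in each of the 3 comparisons, with 0 at an unadjusted p below 0.05. Their median log2 change was 1.44 in TP against control, beside 1.495 for all genes. TP+hucMSC-Exs glands had a list median of -0.07 against TP, beside -0.38 for all genes, and of 1.07 against control, beside 1.09. In TP replicate 2 the list lay at a median of 2.92 above the control mean, all genes at 3.00 and the members at -1.60. TP replicate 2 was the highest library for 21 of the 27 genes, for 1 of the 8 members and for 10476 of all 11477 genes. Rac1, a GTPase of the actin cytoskeleton and the most abundant of the list, stood at 53.4 and 64.4 TPM in TP+hucMSC-Exs, 12.4 and 249 TPM in TP, and 7.05 and 15.1 TPM in control. Vamp8, the SNARE protein of zymogen granules that pairs with syntaxins, stood at 57.4 and 68.8 TPM in TP+hucMSC-Exs, 21.5 and 137 TPM in TP, and 13.2 and 22.5 TPM in control. Both are made in many cell types, and their high values in TP replicate 2 stood beside high fat-cell and macrophage markers, whose part was not tested.

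**Figure D4:**
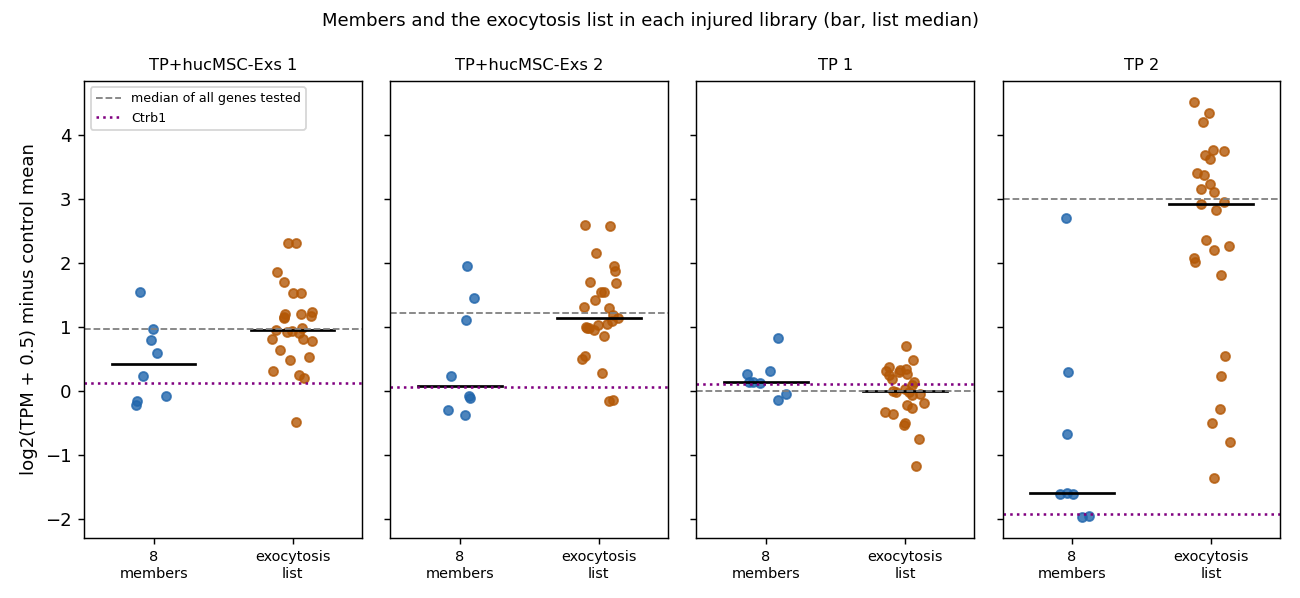
Log2(TPM + 0.5) minus the control mean for the 8 members and the 27 tested genes of the exocytosis list in each injured library, with a bar for the list median, a dashed line for the median of all genes tested and a dotted line for Ctrb1. The exocytosis list follows the median gene in each library, while in TP replicate 2 most members lie near Ctrb1.

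Of 27 listed protease inhibitors other than the members, 24 were in the table and 16 were tested, and limma called 0 in each comparison. In TP against control 4 had an unadjusted p below 0.05, as did 4.06% of all genes, and the median log2 change was 1.25, beside 1.495 for all genes. Against TP, TP+hucMSC-Exs glands had 3 such genes, beside 1.32% of all genes, and a median of 0.73, beside -0.38. Against control they had 5, beside 2.95% of all genes, and a median of 1.92, beside 1.09. Cst3, cystatin C, an inhibitor of cysteine proteases and the most abundant after Spink1l, stood at 203 and 229 TPM in TP+hucMSC-Exs, 177 and 769 TPM in TP, and 177 and 208 TPM in control. TP replicate 1 and the lower control were nearly equal, and TP replicate 2 was highest.

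The genes whose values ran most like those of each member were found by the root mean square difference of log2(TPM + 0.5), centred on each gene's mean, over the 6 libraries. For Sycn the nearest was Ctrb1 at 0.10, and next Pla2g1b, a pancreatic phospholipase, at 0.11. For Zg16 they were the lipase-related Pnliprp2 at 0.09 and the elastase Cela3b at 0.10, and for Serpini2 Pnliprp2 and Ggh at 0.10 each. Gp2 lay nearest to Cst6 at 0.11 and Hpn at 0.13. Spink1 lay nearest to Prss8, a membrane serine protease of epithelia, at 0.15 and to Syne4 at 0.16, and at 0.54 from Ctrb1. Rab3d lay nearest to Sigirr and Ano1 at 0.06 each, and at 0.81 from Ctrb1. Cuzd1 lay nearest to Fam3b at 0.19 and Kirrel2 at 0.23, and Stx3 to Slc35d2 and Ssu72 at 0.07 each and at 1.66 from Ctrb1. Across the 6 libraries the Pearson correlation of log2 TPM was 0.99 between Sycn and Ctrb1 and 0.98 between Gp2 and Ctrb1. Without TP replicate 2 these were -0.31 and 0.14, so they rested on that library. For Rab3d and Stx3 the correlation was 0.68 over 6 libraries and 1.00 without TP replicate 2, and for Spink1 and Rab3d 0.58 and 0.96. Other pairs turned sign without that library, Zg16 and Gp2 from 0.86 to -0.91, and Zg16 and Spink1 from 0.67 to -0.82. These are descriptions over libraries that share groups, with no test.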

How the data were processed

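RNA-seq values were taken from 1 table with a column per library; per the labels' protocols, total RNA was taken with an RNeasy kit and libraries with a SMARTER mRNA kit. The values are TPM as deposited by the authors, with the aligner and quantifier not given in the sources. Per the submitters' processing notes the genome builds were GRCm38 and mm10, which are mouse, while 32883 of 34001 genes carry rat Ensembl identifiers and 1118 MSTRG identifiers; this was not settled, and no coordinates came from the table. The number in the names of the TP columns is unexplained, and they were assigned by group and replicate number. Deposited group means were not used, and gene length entered no test. Depth is unknown.

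Tested genes averaged 1 TPM or more across the 6 libraries, and all 8 members did. Values were log2(TPM + 0.5), fitted over all 6 libraries with limma 3.58.1 in R 4.3.3, with a variance trend, 3 residual and infinite prior degrees of freedom (standard errors follow the trend alone), Benjamini-Hochberg adjustment over all genes and a threshold of 0.05. The same fit was run after subtracting the value of Ctrb1 in each library. The fit was tested on simulated data with noise drawn for each gene alone and planted changes larger than those of the members in the main fits. That checks the code, and does not show how often changes of the members' size would be called. Limma p-values thus set each change against the variance trend over all genes in 6 rats, and not against the gene's own spread. Members and gene lists were chosen with earlier results of these data known. Named genes were the members, Ctrb1, the 2 most abundant genes and every called gene of each list, and the 2 genes most like each member; of these not all are given, and Bhlha15 and Rab26 were chosen after their values were seen. Alternatives covered the pseudocount, the filter, the variance trend, the scaling, the libraries in the fit, the replicate block, the library left out, and the transcript used in place of Ctrb1. Sequences are from RefSeq (GRCr8).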

Additional observations from a re-analysis of the deposited data

How the results depend on the processing

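No member was called in any of the 6 tests (3 comparisons, on TPM and relative to Ctrb1), and the same held under most alternatives. With only the 2 groups compared, 3 members were called for TP+hucMSC-Exs against control, and 2 relative to Ctrb1. Leaving out 1 library gave 0 to 6 members for TP against control, 0 to 5 for TP+hucMSC-Exs against TP and 0 to 3 for TP+hucMSC-Exs against control, and relative to Ctrb1 0 to 3, 0 to 5 and 0 to 2. A lone library left in a group is assumed to vary like the others. The calls moved when a TP library was left out, and so did those of all genes, 0 to 10706, 0 to 9537 and 1 to 6031, and relative to Ctrb1 1 to 11188, 0 to 11034 and 1 to 4326. Other alternatives called 0 to 14, 0 to 22 and 0 to 6056 genes, and relative to Ctrb1 0 to 5, 0 to 9 and 1 to 4247. The log2 Spink1 to trypsinogen ratio ranged over the left-out libraries between 0.32 and 0.55 for TP against control, 0.81 and 1.57 for TP+hucMSC-Exs against TP and 1.24 and 2.00 for TP+hucMSC-Exs against control.

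No pairing of rats by replicate number is stated, and none was assumed. Deviations of same-numbered libraries correlated across genes at 0.28, 0.14 and 0.08. Only 2 pairs exist, so these values cannot decide whether rats were paired. With the replicate block, 0 members were called in each test, and 10, 22 and 35 genes in all, or 4, 1 and 6 relative to Ctrb1.

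Log2 changes that turned sign were as follows, and the cause was not tested. With TPM rescaled without enzymes, TP against control gave -0.88 for Cuzd1 and -0.72 for Rab3d, and TP+hucMSC-Exs against control -0.48 for Gp2 and -0.46 for Cuzd1. Median-of-ratios scaling gave -1.66 for Cuzd1 and -1.43 for Rab3d in TP against control, and -1.24 for Gp2, -1.22 for Cuzd1, -0.35 for Spink1 and -0.40 for Rab3d in TP+hucMSC-Exs against control. With Cpa1 for Ctrb1, TP against control gave -0.13 for Gp2. TP+hucMSC-Exs against TP gave 0.18 for Zg16, 0.79 for Sycn, 0.0145 for Cuzd1, 0.27 for Serpini2, 0.65 for Rab3d and 0.17 for Stx3, and against control 0.24 for Zg16, 0.44 for Sycn and 0.31 for Serpini2. With the summed enzymes, TP against control gave 0.012 for Sycn and 0.15 for Spink1, TP+hucMSC-Exs against TP 0.28 for Sycn and 0.13 for Rab3d, and against control 0.0875 for Zg16, 0.29 for Sycn and 0.16 for Serpini2. Over left-out libraries, TP against control ranged between -0.68 and 0.83 for Cuzd1, -1.61 and 0.31 for Zg16, -1.59 and 0.26 for Serpini2 and -1.96 and 0.12 for Spink1. TP+hucMSC-Exs against TP ranged between -0.95 and 1.62 for Stx3, -0.61 and 1.31 for Zg16, -0.57 and 0.93 for Cuzd1 and -0.49 and 1.36 for Serpini2, and against control between -0.0825 and 0.59 for Cuzd1. Relative to Ctrb1, TP against control ranged between -0.16 and 0.31 for Gp2, -0.0146 and 0.51 for Serpini2 and -0.17 and 0.15 for Spink1. TP+hucMSC-Exs against TP ranged between -0.16 and 0.30 for Gp2, -0.14 and 0.0591 for Sycn, -1.28 and 0.91 for Rab3d and -2.96 and 1.63 for Stx3, and against control between -0.14 and 0.47 for Cuzd1. TPM holds no depth, so what depth limits could not be judged.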
